A study of Mus musculus with 2 samples.

Results

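A set of 42 cell cycle and proliferation genes was followed in whole kidneys of *Cnnm2*-deficient mice. The genes were listed by symbol, with earlier results of these data known, and all 42 are among the 31821 gene names on the arrays. They cover the steps from the decision to divide through DNA replication to the separation of the chromosomes.

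Total RNA was taken from whole kidneys at an age of 2 months. The knockout sample came from mice with the genotype Cnnm2fl/fl;Six2-Cre, and the control sample from mice with Cnnm2+/+;Six2-Cre. Both genotypes carry the Six2-Cre transgene, which drives Cre in nephron progenitors. In the knockout sample *Cnnm2*, which encodes a magnesium transporter of the distal tubule, is therefore deleted in nephron cells, and the kidney also holds stromal, vascular and blood cells of other descent. Both samples were hybridized together on each of 2 arrays, with the knockout sample in Cy5 on array 1 and in Cy3 on array 2. How many mice gave each RNA is not stated, and the arrays were taken to repeat the labeling of the same RNA. Each genotype therefore counts as 1 replicate, the difference between genotypes has no replicate check, and each SD below is that of the 2 arrays and leaves out differences between mice.

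Cell division is driven by cyclins, which switch on cyclin-dependent kinases (CDKs) in sequence and are opposed by CDK inhibitors. Transcription factors of the E2F family drive the genes of DNA replication, and FOXM1 and the MuvB complex drive those of mitosis, so that the messages of dividing cells come and go with the cycle. In the healthy adult kidney few tubule cells divide, while some of these genes, such as the D cyclins and several CDK inhibitors, are also expressed in cells at rest.

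On the arrays each gene is read by probes of 60 bases. The sequences shown are the first 30 bases of probes on which the results below turn. A pair of the 3 *Cdk1* probes is given to show how far they overlap, with shared bases in capitals. Along their full length they share 41 bases.
*Cdk1* A_55_P2048588 (mm9 chr10:68801072-68801131, minus strand): ttcttaatttcctacgtatAACTTAATTAA
*Cdk1* A_55_P2016652 (mm9 chr10:68801053-68801112, minus strand): AACTTAATTAACATGTAAATATTATTCCAT
*E2f1* A_55_P2317665 (mm9 chr2:154385798-154385857, minus strand): gcctggctgggtttgcagggcagcaagagc
*Ccnd1* A_66_P111562 (mm9 chr7:152116202-152116261, minus strand): ttaatctgttaggttctagtgttccgtctt
*Mcm5* A_51_P190111 (mm9 chr8:77651350-77651410, plus strand): tggaaatgtactttggtctgttggctcata
*Top2a* A_55_P1995205 (mm9 chr11:98855522-98855581, minus strand): ttcttctgatagctctgactctgattttga
The next sequences belong to *Cdkn2b* and *Pttg1*, which are outside the set of 42. Each of these genes has 2 probes.
*Cdkn2b* A_55_P1988183 (mm9 chr4:88952276-88952335, minus strand): ccagtgatgaattgtagtggtagcaggtta
*Cdkn2b* A_55_P1979526 (mm9 chr4:88952720-88952779, minus strand): ttgagcctcaccttgaagccaaggggatca
*Pttg1* A_55_P1987499 (mm9 chr11:43233801-43233860, minus strand): ccgcctgtttgttacgatgcagatatttaa
*Pttg1* A_55_P2110738 (mm9 chr11:43234562-43234621, minus strand): tcatgggaatctggtaagggagtccgttca

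Promoters were read from RefSeq sequences of the GRCm38.p6 build, taking the 250 bases before each start. The table matched 33 of the 42 members, with 37 promoters, and not *Ccna2*, *Ccnd1*, *Ccnd2*, *Ccne2*, *Cdkn1c*, *Aurkb*, *Mcm4*, *Tpx2* and *Foxm1*. Letters of the following motifs were searched on both strands: TTTGAA, the core of the cell cycle homology region (CHR), which binds MuvB, CCAAT, which binds NF-Y, and TTTGGCGC or TTTCCCGC, which E2F proteins bind. None of these motifs contains another. Among 15 promoters of the B cyclins, *Cdk1* and other mitotic members, 6 (40.0%) held the CHR letters and 13 (86.67%) held CCAAT, and 0 held the E2F letters. Among 14 promoters of *Ccne1*, *Cdk2*, *E2f1* and the S phase members, 1 (7.143%) held the CHR letters, 10 (71.43%) held CCAAT and 5 (35.71%) held the E2F letters. Among 8 promoters of *Ccnd3*, *Cdk4* and 3 CDK inhibitors, 0 held the CHR letters, 2 (25.0%) held CCAAT and 0 held the E2F letters. Over all 32851 promoters of this length, the shares were 15.99%, 33.85% and 1.3%. The promoters of *Cdk1*, *Ccnb2* and *Mcm6* are shown as examples of both kinds, with the matched letters in capitals.
*Cdk1* (chr10:69352913-69353162, minus strand): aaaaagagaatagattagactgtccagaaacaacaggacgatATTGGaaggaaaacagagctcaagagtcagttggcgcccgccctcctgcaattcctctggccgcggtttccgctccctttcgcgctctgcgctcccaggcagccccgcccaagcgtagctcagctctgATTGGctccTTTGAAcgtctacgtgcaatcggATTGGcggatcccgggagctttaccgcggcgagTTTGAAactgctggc
*Ccnb2* (chr9:70421555-70421804, minus strand): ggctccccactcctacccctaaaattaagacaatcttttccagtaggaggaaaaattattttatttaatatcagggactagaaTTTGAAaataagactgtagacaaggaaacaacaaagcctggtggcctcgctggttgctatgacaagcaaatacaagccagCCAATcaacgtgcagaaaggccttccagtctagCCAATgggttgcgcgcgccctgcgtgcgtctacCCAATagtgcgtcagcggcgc
*Mcm6* (chr1:128359706-128359955, minus strand): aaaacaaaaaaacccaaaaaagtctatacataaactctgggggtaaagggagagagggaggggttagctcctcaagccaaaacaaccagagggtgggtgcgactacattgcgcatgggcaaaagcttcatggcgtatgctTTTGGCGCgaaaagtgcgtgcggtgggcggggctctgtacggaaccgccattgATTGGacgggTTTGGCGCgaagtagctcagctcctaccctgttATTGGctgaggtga
In the *Cdk1* promoter the CHR letters began 71 and 15 bases before the start, and in that of *Mcm6* the E2F letters began 110 and 47 bases before it. These matches describe the sequence and not the binding of a factor in the kidney.

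The label check came from *Cnnm2* itself, whose probe had a log2 ratio of knockout over control of -2.88 on array 1 and -2.46 on array 2. Of the 43020 gene spots on each array, between 62.6% and 68.0% were well above background in a channel. All 7 markers of tubule cells and podocytes were well above background in both genotypes, with means from -0.32 to 0.17. Of these markers, 2 were lower on both arrays and 0 higher, against 15.6% lower and 12.1% higher of all genes tested by the rule below. The 7 markers included *Umod* of the thick ascending limb, *Lrp2* of the proximal tubule and *Aqp2* of the collecting duct.

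Most of the set was detected, and most of what was detected lay close to equal in the 2 genotypes. A gene was tested where, in at least 1 genotype, both arrays read its brightest probe well above background, which held for 36 of the 42 members (85.7%) and for 19708 of all gene names (61.9%). Of the 36 members, 0 were changed at least 2-fold in 1 direction on both arrays, against 0.599% of all genes tested. At a limit of 1.5-fold the count was again 0, against 2.06% of all genes. The mean log2 ratios of the 36 members ran from -0.32 (*Ccnd1*) to 0.36 (*Mcm5*), and 32 of them (88.9%) were within 1.2-fold of equal, as were 86.6% of all genes tested. The median was 0.078, against -0.008 over all genes. In RNA of a whole kidney, a change in the number of dividing cells and a change of a message in each of them cannot be told apart.

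For most members the direction of the difference switched when the dyes were exchanged. The ratio pointed 1 way on array 1 and the other way on array 2 for 25 of the 36 members (69.4%) and for 72.3% of all genes tested. Of these 25 members, 13 were positive on array 1 and 12 were negative. Of the remaining 11, 9 members (25.0%) were higher in the knockout sample on both arrays, against 12.1% of all genes, and 2 members (5.56%) were lower on both, against 15.6%. Higher on both arrays were *E2f1*, *Cdkn1a*, *Cdkn1c*, *Mcm3*, *Mcm5*, *Ccnb2*, *Cdk1*, *Aurka* and *Nusap1*, and lower on both were *Ccnd1* and *Ccnd3*. The mean exceeded the SD of the arrays in the higher direction for 4 members (*E2f1*, *Cdk1*, *Mcm3* and *Nusap1*, 11.1%), against 8.93% of all genes, and in the lower direction for *Ccnd1* and *Ccnd3* (5.56%), against 11.8%. Across the 36 genes, which are not independent replicates and share both arrays, the log2 ratios of the arrays had a Pearson's r of -0.62, and across all genes tested the r was -0.51. The GC content of the probes used ran from 18.3% to 53.3% with a median of 40.8%, and the median over all genes tested was 41.7%.

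**Figure D1:**
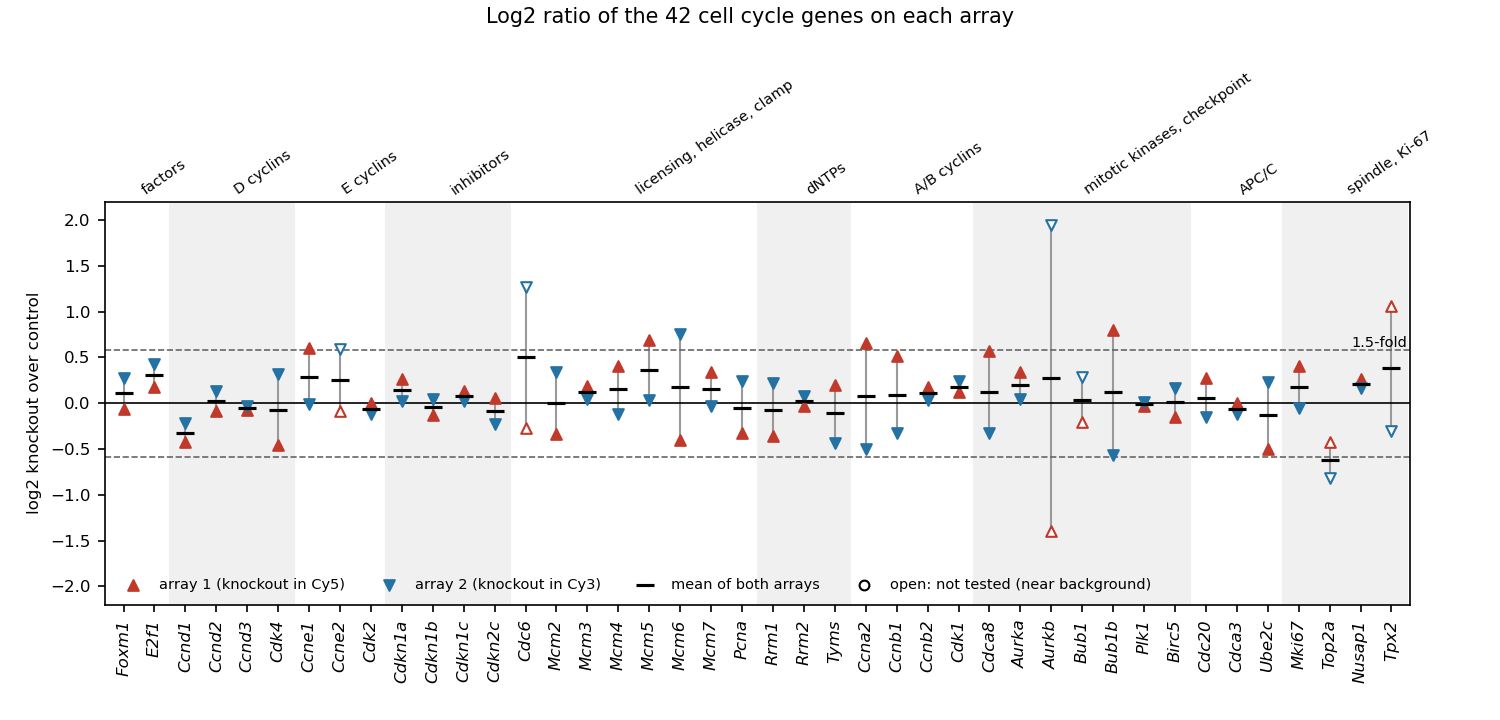
Log2 ratio of knockout over control (vertical axis) of each of the 42 members, grouped by role, on array 1 (red, upward triangles) and array 2 (blue, downward triangles), with the mean of both as a bar and 1.5-fold as dashed lines. Open symbols mark the 6 members not tested. The triangles of a gene lie on opposite sides of 0 for most members, and no tested member has its mean outside the dashed lines.

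**Figure D2:**
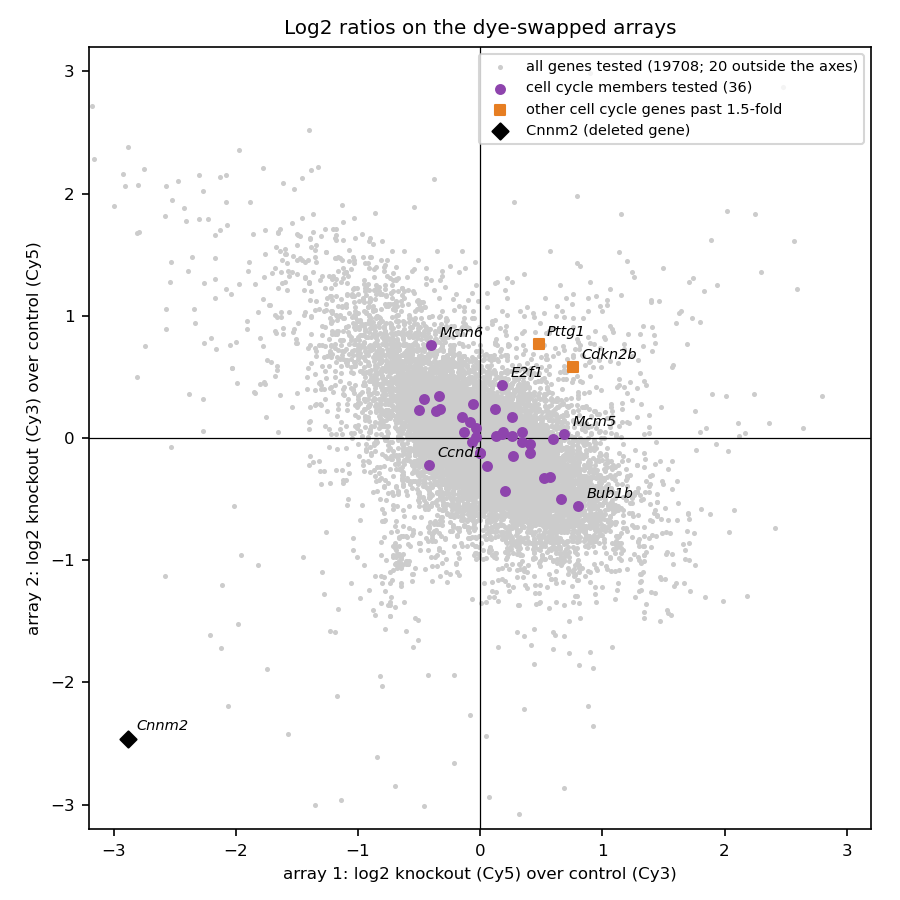
Log2 ratio of knockout over control on array 1 (horizontal axis) and array 2 (vertical axis) for the 19708 genes tested (grey), the 36 members tested (purple), *Cdkn2b* and *Pttg1* (orange squares) and *Cnnm2* (black diamond). A change that is the same under both labelings lies in the upper right or lower left, where *Cnnm2* stands at -2.88 and -2.46, while most members lie in the cloud that runs from the upper left to the lower right.

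Among the transcription factors of the cycle, *E2f1*, which drives genes of DNA replication, was higher in the knockout sample under both labelings. Its processed signal was 201 in the knockout sample and 177 in the control sample on array 1, and 179.6 and 133 on array 2. Both knockout values were thus above the control value of their own array. The log2 ratios were 0.18 and 0.43, with a mean of 0.31 ± 0.18 (SD of the 2 arrays), a 1.24-fold difference. *Foxm1*, which drives mitotic genes, had signals of 39.0 and 40.7 on array 1 and 35.2 and 28.9 on array 2, in the order knockout and control. Its log2 ratios were -0.06 and 0.28, so the arrays disagreed in direction.

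The D cyclins join CDK4 to start the release of E2F, and *Ccnd1* was the tested member with the lowest mean ratio. *Ccnd1* had a signal of 6742 in the knockout sample against 9035 in the control sample on array 1, and 6462 against 7503 on array 2. The knockout value was the lower one each time, the log2 ratios being -0.42 and -0.22 with a mean of -0.32 ± 0.15, or 1.25-fold lower. *Ccnd3* was nearly equal, with 11781 against 12337 and 9432 against 9644, a mean log2 ratio of -0.05 ± 0.02. *Ccnd2* had 287 against 303 on array 1 and 314 against 287 on array 2, with a mean of 0.02 ± 0.15. *Cdk4*, the kinase of these cyclins, had 4463 against 6122 and then 4649 against 3713, so its log2 ratio of -0.46 turned to 0.32 when the dyes were exchanged. The second *Ccnd3* probe likewise gave -0.59 and 0.29. With the brightest probe of each gene, *Ccnd1* alone of the 3 D cyclins had a mean larger than 0.1 in size, and the mean of the second *Ccnd3* probe was -0.15.

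The E cyclins switch on CDK2 at the start of DNA replication. The log2 ratio of *Ccne1* was 0.60 on array 1, where its signal was 59.3 against 39.2, and -0.01 on array 2, where it was 45.6 against 46.0, so its mean of 0.29 ± 0.43 rests on array 1. *Cdk2* had 119 in both samples on array 1 and 123 against 133 on array 2. *Ccne2* was not well above background in any channel, with signals between 2.02 and 3.04, so no ratio is given for it as a result.

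The 4 CDK inhibitors were detected in both genotypes on both arrays, and their means lay between -0.09 and 0.14. *Cdkn1a*, a p53 target that halts the cycle after damage, had 304 against 254 on array 1 and 242 against 239 on array 2, a mean log2 ratio of 0.14 ± 0.17. Its probe is printed 10 times on each array, and the SD between these spots was 0.0375 and 0.0557 on the log2 scale, below the SD of the arrays. *Cdkn1c*, an inhibitor expressed in podocytes, had 4140.0 against 3776 and 3645 against 3596, a mean of 0.08 ± 0.08. *Cdkn1b*, which holds cells at rest, had 2019.6 against 2211 and 1751 against 1695, with a mean of -0.04 ± 0.13. *Cdkn2c*, an inhibitor of CDK4, had 401 against 385 and 282 against 331, a mean of -0.09 ± 0.21. The mean exceeded the SD of the arrays for 0 of these 4 genes with the probe used. Over all genes tested it did so for 8.93% in the higher and 11.8% in the lower direction. The second *Cdkn1b* probe had 0.22 and 0.21.

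The MCM genes encode the ring that unwinds DNA at the replication fork. Of the 6 members of this family, 4 changed direction between the arrays, as did 72.3% of all genes tested. *Mcm5* had the highest mean of all members tested, 0.36 ± 0.46, with signals of 299 against 186 on array 1 and 247 against 242 on array 2. Its log2 ratio was thus 0.69 on one array and 0.03 on the other. *Mcm6* showed the opposite order, with 3861 against 5104 on array 1 and 4447 against 2627 on array 2, and log2 ratios of -0.40 and 0.76. *Mcm2* had -0.34 and 0.34, *Mcm4* had 0.41 and -0.12, *Mcm7* had 0.34 and -0.03, and *Mcm3* had 0.19 and 0.05. The median of the licensing, helicase and clamp genes tested was 0.15 over 7 genes, of which only *Mcm3* and *Mcm5* kept 1 direction. *Pcna*, the clamp that holds the polymerase on DNA, had 2864 against 3610.1 and then 2822 against 2393, with a mean of -0.05 ± 0.40. *Cdc6*, which loads the MCM ring, was not well above background in any channel, with signals between 3.88 and 9.33. The enzymes that supply nucleotides gave means of -0.07 for *Rrm1*, 0.02 for *Rrm2* and -0.11 for *Tyms*, each with opposite signs on the 2 arrays.

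**Figure D3:**
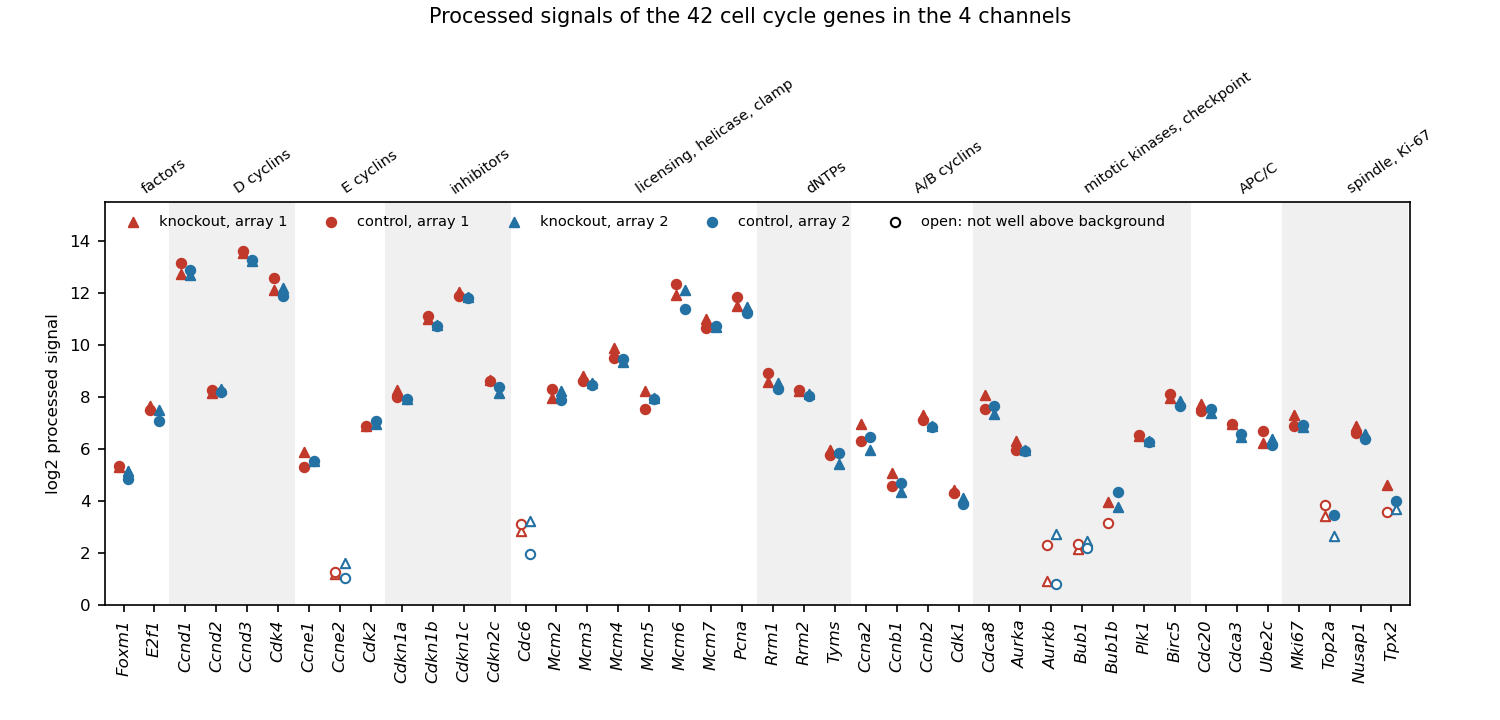
Log2 processed signal (vertical axis) of the 42 members in the knockout sample (triangles) and the control sample (circles) on array 1 (red) and array 2 (blue). Open symbols are channels not well above background. Signals of different probes are not comparable as levels of RNA, and within a gene the 4 channels of most members lie close together.

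The A and B cyclins and CDK1 carry cells into mitosis, and each of the 4 genes was well above background in all 4 channels. *Ccna2* had 124 against 78.6 on array 1 and 61.8 against 87.5 on array 2, so that the knockout value was the higher one on array 1 and the lower one on array 2, with log2 ratios of 0.66 and -0.50. *Ccnb1* behaved in the same way, with 33.6 against 23.4 and 20.4 against 25.7, and log2 ratios of 0.52 and -0.33. *Ccnb2* had 156 against 137 and 118 against 116, a mean of 0.11 ± 0.11. *Cdk1* was higher in the knockout sample on both arrays, with 21.3 against 19.6 and 17.4 against 14.8 and a mean of 0.18 ± 0.09. This value depended on the processing and the probe. It was 0.01 with normexp background correction and loess, and -0.06 with the median over the probes. The probe that shares 41 bases with it, not well above background, gave -2.46 and 2.61.

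Among the kinases and checkpoint genes of mitosis, *Aurka*, which matures the spindle poles, had a mean of 0.20 ± 0.20, with both arrays above 0. *Plk1* was nearly equal, with log2 ratios of -0.03 and 0.01. *Bub1b*, a checkpoint gene that delays the separation of chromosomes, had 0.80 and -0.56, and *Cdca8* and *Birc5*, of the complex that corrects attachments of chromosomes, had 0.57 and -0.32, and -0.15 and 0.17. In the control sample, *Bub1b* was well above background on array 2 but not on array 1. *Aurkb*, with signals between 1.72 and 6.59, and *Bub1*, with signals between 4.39 and 5.53, were not well above background in any channel. The *Bub1* probe, printed 10 times, had an SD between spots of 0.769 on array 1 and 0.887 on array 2, against a median of 0.0494 and 0.0467 over the 382 probes printed at least 8 times. The activators and targets of the anaphase-promoting complex, which marks cyclins for destruction, had means of 0.06 for *Cdc20*, -0.06 for *Cdca3* and -0.13 for *Ube2c*. The arrays disagreed in direction for *Cdc20* (0.27 and -0.15) and *Ube2c* (-0.50 and 0.23), and *Cdca3* had 0.00 and -0.12.

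*Mki67* and *Top2a* are the transcripts most used to mark dividing cells. The brightest *Mki67* probe changed direction between the arrays, and *Top2a* was near background. *Mki67*, which coats mitotic chromosomes, had 156 against 118 on array 1 and 115 against 119 on array 2, with a mean of 0.18 ± 0.32. Its second probe, also above background in both genotypes, had 0.15 and 0.04, a mean of 0.10. *Top2a*, which untangles DNA before mitosis, had log2 signals of 3.40 against 3.82 on array 1 and 2.65 against 3.47 on array 2, with log2 ratios of -0.42 and -0.82. Only the control channel of array 2 was well above background, and the knockout sample was not on either array. The mean of these ratios, -0.62, was -0.12 with no background correction and loess and -0.02 with normexp and loess, and no fold is given for this gene. *Nusap1*, which bundles spindle microtubules, was the most even of the higher members, with 116 against 96.8 and 94.1 against 83.9, a mean of 0.21 ± 0.07. *Tpx2*, an activator of *Aurka*, was above background in the Cy5 channel of each array only, with log2 ratios of 1.06 and -0.30, and was not tested.

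By stage, the 12 tested genes of entry and its brakes had a median log2 ratio of -0.01, the 10 of DNA synthesis 0.07 and the 14 of mitosis 0.10. *Foxm1*, which drives mitotic genes, was counted with entry here because the transcription factors were grouped there. The medians of the arrays were -0.03 and 0.02 for entry, 0.08 and 0.06 for synthesis, and 0.27 and -0.02 for mitosis. The median of the mitotic genes was thus above 0 on array 1, where the knockout sample carried Cy5, and near 0 on array 2.

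A total of 15 members have more than 1 probe, and for 8 of them the mean ratios of the probes differ in sign. More than 1 probe was tested by the rule above for 9 members, of which *Birc5*, *Cdk4*, *Cdkn1a* and *Cdkn1b* disagreed in sign. The brightest *Cdkn1a* probe had a mean of 0.14 and the other -0.25, the latter from -1.01 and 0.50. *Mcm3* was even, with 0.12 and 0.04, and so was *Ube2c*, with -0.13 and -0.10. For *Ccnb1*, *Ccne1*, *Cdk1* and *Foxm1*, the disagreeing probe was not well above background.

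**Figure D4:**
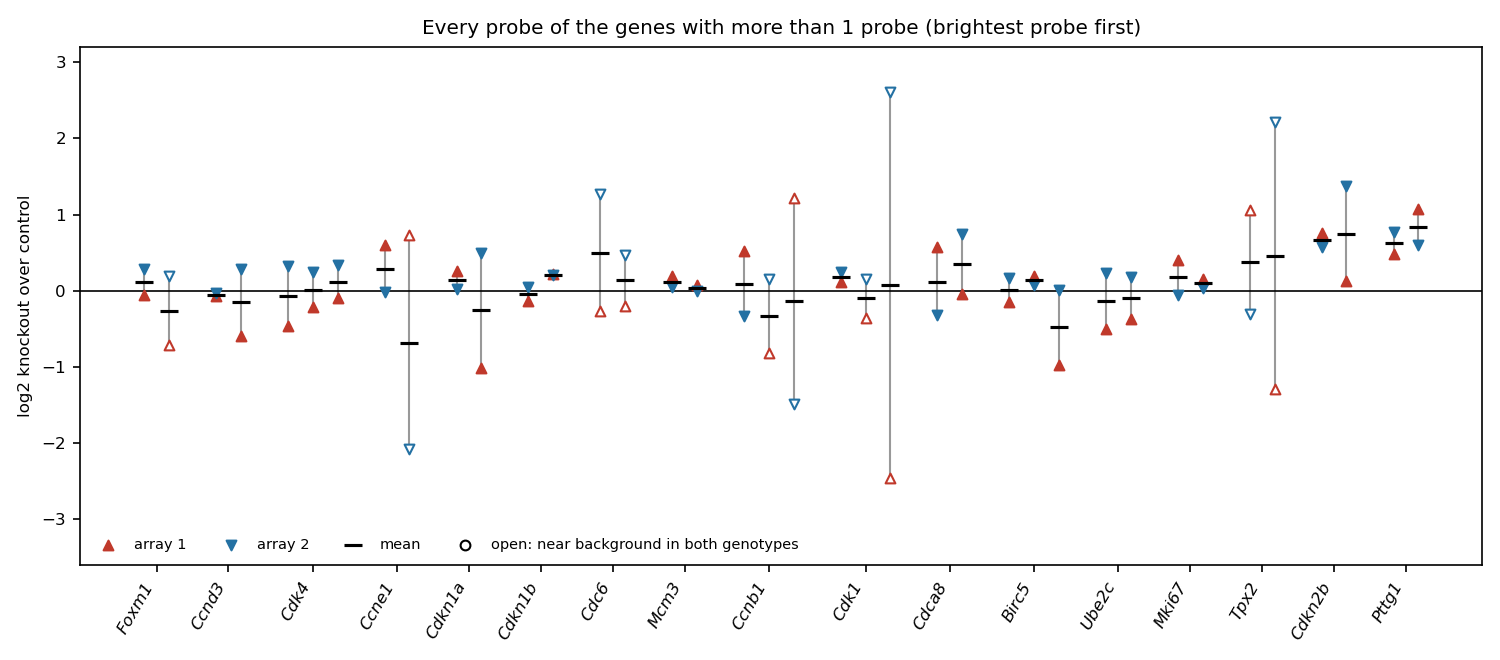
Log2 ratio of knockout over control (vertical axis) of every probe of the 15 members with more than 1 probe and of *Cdkn2b* and *Pttg1*, brightest probe first, on array 1 (red, upward) and array 2 (blue, downward) with the mean as a bar. Open symbols are probes not well above background in either genotype on both arrays. The probes of *Cdkn2b* and *Pttg1* have all 4 values above 0, and probes near background spread most.

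Beyond the 42 members, 113 other genes of the cycle were found on the arrays, 7 of them under an older symbol, and 96 were tested. Of these, 2 were changed at least 1.5-fold in 1 direction on both arrays, a share close to the 2.06% of all genes tested, and both were higher. *Cdkn2b*, an inhibitor of CDK4 that responds to growth arrest signals, had 509.9 against 300.1 on array 1 and 398 against 266 on array 2. The knockout value was the higher one each time. The log2 ratios were 0.76 and 0.58, with a mean of 0.67 ± 0.13, or 1.59-fold. Its second probe gave 0.13 and 1.37. With normexp and loess the mean of the brightest probe was 0.49, short of 1.5-fold. *Pttg1*, which encodes securin, the protein that restrains the enzyme parting sister chromatids until anaphase, had 10351 against 7418 and 9786 against 5726. The log2 ratios were 0.48 and 0.77, with a mean of 0.63 ± 0.21, or 1.54-fold, and its second probe gave 1.08 and 0.60. For both genes, both probes were well above background in both genotypes and higher in the knockout sample on both arrays.

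The other genes of the cycle were, like the members, mostly near equal. The 96 genes tested had a median log2 ratio of 0.064, and 86 of them (89.6%) were within 1.2-fold. The arrays disagreed in direction for 69 (71.9%), against 72.3% of all genes tested. Of the rest, 23 (24.0%) were higher on both, against 12.1% of all genes, and 4 (4.17%) were lower on both, against 15.6%. The medians by role were 0.05 for pocket proteins, E2F and MuvB, 0.07 for cyclins, kinases and inhibitors, 0.09 for origin licensing and DNA synthesis and 0.02 for mitosis and cytokinesis. Of 12 targets of p53, which stops the cycle after damage, 12 were tested, with means from -0.16 to 0.30. Of these, 0 reached 1.5-fold, against 2.06% of all genes tested. *Bbc3*, *Sesn1* and *Phlda3* were higher and *Zmat3* was lower on both arrays, with the other 8 opposite. Over all genes tested, these shares were 12.1% higher, 15.6% lower and 72.3% opposite.

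Markers of cells that could divide or bring their own messages were read beside these genes, and their part in the results was not tested. Of 9 leukocyte markers, 8 were tested, with means from -0.47 to 0.13. Among them 4 were lower on both arrays and 0 were higher, where 15.6% of all genes tested were lower and 12.1% higher. The B cell marker *Cd79a*, which was not tested, was well above background in the control channel of array 1 alone. On array 2 its signal was 10.9 in the knockout sample and 5.16 in the control sample. The summed signal of the 9 genes, most of it from *Csf1r* of macrophages, was 8808 in the knockout sample against 10011 in the control sample on array 1 and 8133 against 7207 on array 2. The 4 genes of red blood cells and their precursors were all tested, with means from -0.31 to -0.11. Only 1 of them, *Hbb-b1*, was lower on both arrays and 0 were higher, against 15.6% and 12.1% of all genes tested. The sums of the 4 genes were 118487 against 113461 and 84973 against 108973, most of each from *Hba-a1*, with log2 ratios of 0.25 and -0.48. Of 8 genes of tubular injury, 7 were tested, with means from 0.01 to 0.47, and 4 were higher on both arrays and 0 lower, against the same 12.1% and 15.6% of all genes. *Havcr1*, the injury molecule of proximal tubule cells, had 0.56 and 0.38 with its brightest probe and 0.95 and 0.97 with the other. The other probe was much dimmer, with a mean log2 signal of 4.61 against 10.62, though well above background in both genotypes. The summed signal of the injury genes was 67878 against 65046 on array 1 and 63338 against 50837 on array 2. Most of each sum came from *Clu*, with log2 ratios of -0.01 and 0.42.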

How the data were processed

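Kidney RNA of 1 knockout and 1 control sample was hybridized on 2 dye-swapped Agilent whole mouse genome arrays. The authors deposited scanner output, whose signal intensity is processed for background, spatial trend and dye within each array per the file headers, and a log10 ratio of the Cy5 over the Cy3 signal. The processing notes name Feature Extraction 10.5.1.1 and the headers 10.7.3.1. The deposited series matrix gives the same log10 ratio, turned to knockout over control, and lay within 0.00492 of the scanner's. Probe positions are on mm9.

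Control spots were left out, as were spots the software marked as uneven or as outliers (141 and 175 gene spots, none of members). Log2 ratios of processed signals were turned to knockout over control, averaged over spots and then arrays, and taken from the brightest probe of each gene. Calls needed a mean fold of 2 or 1.5 and 1 direction on both arrays. The number of arrays limits the precision. With 1 replicate of each genotype, limma 3.58.1 and the methods' t-test served as alternatives only, since both measure the spread between labelings. Genes named are the D cyclins, CDK inhibitors, MCM genes, common proliferation markers, members whose probes disagree or are at the ends of the signal range, and genes past 1.5-fold. Others were named after their values were seen. The members and lists were chosen with earlier results of these data known. Some marker genes are not reported here. The code was tested on simulated data. Their changes were larger than both fold limits, and their dye difference was smaller than that of the arrays. That test therefore does not show how the calls perform at 1.5-fold. Alternatives were other background corrections and normalizations, the deposited ratios, other limits on dim, marked or saturated spots, the median over probes, and each array alone. Python 3.11.15, scipy 1.17.1 and R 4.3.3 were used.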

Additional observations from a re-analysis of the deposited data

How the results depend on the processing

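The count of 0 members changed at least 2-fold held under every alternative run with both arrays, and with array 1 alone it was 1 (*Tpx2*) and with array 2 alone 0. At 1.5-fold the count of 0 became 1 (*Top2a*) with no limit on dim probes, 5 with array 1 alone and 2 with array 2 alone. By limma the count of members past a fold limit with an adjusted p under 0.05 was 0, and 0 members had an unadjusted p under 0.05, against 1.3% of all genes tested; by the methods' t-test 0 members had a p under 0.1, against 4.99%. Of the other cell cycle genes, 2 passed 1.5-fold, against 4 with no limit on dim probes, 1 with normexp and loess (*Pttg1*, with *Cdkn2b* at 0.49), 1 by the methods' t-test (*Cdkn2b*), 0 after its Benjamini-Hochberg adjustment, 0 with limma, 0 when the fold was required on each array, and 10 and 22 on single arrays, which keep their dye effects. The median of the members lay between 0.017 and 0.133, that of the other genes between -0.011 and 0.132, and the number of members with 1 direction between 10 and 15; single arrays give no value for the last. With the median over probes, *Cdk1* went to -0.06, *Cdkn1a* to -0.06 and *Cdkn1b* to 0.09. *Top2a* went to -0.02 with normexp and loess. The causes of these shifts were not tested. Each ratio pairs the genotypes within its array, and limma and the methods' t-test used these pairs. Beyond this, no paired analysis was possible because no replicate number is left to serve as a block. Signal over background limits what can be said of *Top2a*, *Tpx2*, *Ccne2*, *Cdc6*, *Aurkb* and *Bub1*.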

Other observations

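Among the other cell cycle genes, *Ect2*, which starts the cleavage of the dividing cell, had signals of 265 in the knockout sample and 136 in the control sample on array 1 and 2.97 and 145 on array 2. Its knockout channel was well above background on array 1 and not on array 2, and its log2 ratio was 0.96 on array 1. For array 2 no ratio is given.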
